A study of Homo sapiens with 9 samples.

Results

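The parathyroid hormone system was read through 6 genes on expression arrays of T47D cells, an established human luminal breast cancer cell line. These genes were the ligands PTH and PTHLH, the receptors PTH1R and PTH2R, the calcium-sensing receptor CASR, and GNAS, the locus of the stimulatory G protein alpha subunit. Every probe that carried 1 of these gene names was taken, which gave 10 probes of the 58201 on the array, where 43317 gene names occur. GNAS had 5 probes and each of the other genes had 1. The study asked how gene expression differs in T47D cells that express PTH-AS, a long noncoding RNA transcribed downstream of the PTH gene and antisense to it. T47D-VC1 cells carried the empty expression vector, T47D-PA5 cells the vector with an incomplete PTH-AS fragment that lacks part of the 5′ side, and T47D-PA6 cells the vector with full-length PTH-AS. All of them were therefore T47D cells that had been transfected with this vector and selected with drug as stable clones. Each line was hybridized to 3 arrays, 9 in all. A single line out of the high expressers was carried forward for each PTH-AS construct, so the differences below are between selected lines. No source states that the 3 arrays of a line came from separate cultures, and the p-values then measure only the spread between arrays, which may be technical.

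PTH is secreted by the parathyroid gland and raises blood calcium through bone and kidney. PTHLH encodes the PTH-related protein, which many tissues make, the breast among them, and which is known for its part in mammary development and in the hypercalcemia of cancer. Both ligands act on PTH1R, a class B G protein-coupled receptor that couples to the stimulatory G protein, adenylate cyclase and protein kinase A. PTH2R answers mainly to another peptide, PTH2, and CASR restrains PTH secretion when calcium is high. GNAS is an imprinted locus with several promoters. Its NESP55 transcript comes from the maternal allele, its XL transcript, which encodes a large form of the alpha subunit, comes from the paternal allele, and all main transcripts share their downstream exons.

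The probes are single-stranded DNA of 60 bases, and those that lie in coding sequence are printed to show what each reading rests on, 5′ to 3′ on the transcript strand. Positions are those of the array files, in the hg19 build. The PTH probe lies on the minus strand at chr11:13513947-13514006 and crosses the end of the coding sequence. Its stop codon is in capitals, starts at base 53 of the probe and is followed by 5 more bases.
PTH: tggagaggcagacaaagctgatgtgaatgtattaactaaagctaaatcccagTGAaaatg
PTHLH, minus strand, chr12:28116342-28116401: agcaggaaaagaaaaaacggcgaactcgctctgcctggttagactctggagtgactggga
PTH1R, plus strand, across a splice junction within chr3:46944115-46944255: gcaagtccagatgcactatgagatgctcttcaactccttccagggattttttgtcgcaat
GNAS NESP55 exon, plus strand, chr20:57415463-57415522: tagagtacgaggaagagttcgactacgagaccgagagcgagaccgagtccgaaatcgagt
GNAS XL exon, plus strand, chr20:57430307-57430366: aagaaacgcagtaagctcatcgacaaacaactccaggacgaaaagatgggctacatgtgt
GNAS shared 3′ exons, plus strand, across a splice junction within chr20:57485083-57485394: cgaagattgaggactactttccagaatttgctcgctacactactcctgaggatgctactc
The other GNAS probes lie at chr20:57475008-57475067, in a transcript that the array names from Ensembl, and at chr20:57486004-57486063, in the shared 3′ end of the locus. PTH2R was read at chr2:209358543-209358602 and CASR at chr3:122005258-122005317, both on the plus strand. Over the 10 pairs of GNAS probes, the longest run of bases that any pair shared was 7, so these probes read different stretches of the locus. Which exon a GNAS probe reads is named from the transcript that the array gives for it, because no annotation of this build was used here.

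Signals are background-subtracted intensities, quantile-normalized between arrays. Levels are compared only for the same probe between lines. Signal ratios of GNAS probes on the same array are given once, as changes from their T47D-VC1 mean. The scanner software marks a probe as well above background or not. The 26171 probes so marked on all 3 arrays of a line, or of several, were tested. Log2 fold changes, standard errors (SE) and adjusted p-values come from limma with Benjamini-Hochberg adjustment over these probes, and a probe was called when the adjusted p was under 0.05. Each array had 44.0% to 48.0% of its probes well above background, and saturation affected 0 spots. The 10 luminal breast markers looked up, with ESR1, FOXA1 and KRT8 among them, were well above background on all 9 arrays, as the label of the line implies. Of 9 markers of immune, endothelial and stromal cells that had a probe, 4 were well above background on no array and 4 on all 9. The summed signal of the tested ones was 411 to 456 in T47D-VC1, 377 to 399 in T47D-PA5 and 298 to 324 in T47D-PA6, mostly from COL1A1, and its part in the results below was not tested. Bulk RNA cannot tell fewer expressing cells from less RNA per cell.

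PTH, PTH1R, PTH2R and CASR were at background in all 3 lines: none was well above background on any of the 9 arrays, and none was tested. The PTH signal was 2.45 to 4.79 over the 9 arrays, whereas the lowest signal well above background was 9.59 to 15.2, depending on the array. PTH was 2.52, 4.79 and 2.47 in T47D-VC1, 2.51, 2.46 and 3.34 in T47D-PA5, and 2.50, 3.93 and 2.45 in T47D-PA6. The line with full-length PTH-AS therefore gave no PTH signal above background with this probe, nor did the others. The PTH1R signal was 3.20 to 5.89, the PTH2R signal 3.34 to 3.83 and the CASR signal 2.47 to 3.90. Values under the detection limit have only an upper bound and no order, so no fold is given for these genes. PTH2, the peptide ligand of PTH2R, was well above background on all 9 arrays. It was named after its values were seen. Its mean signal was 198 in T47D-VC1, compared with 295 in T47D-PA5 and 286 in T47D-PA6, and neither difference from T47D-VC1 passed the test (adjusted p = 0.241 and 0.156, limma).

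**Figure D1:**
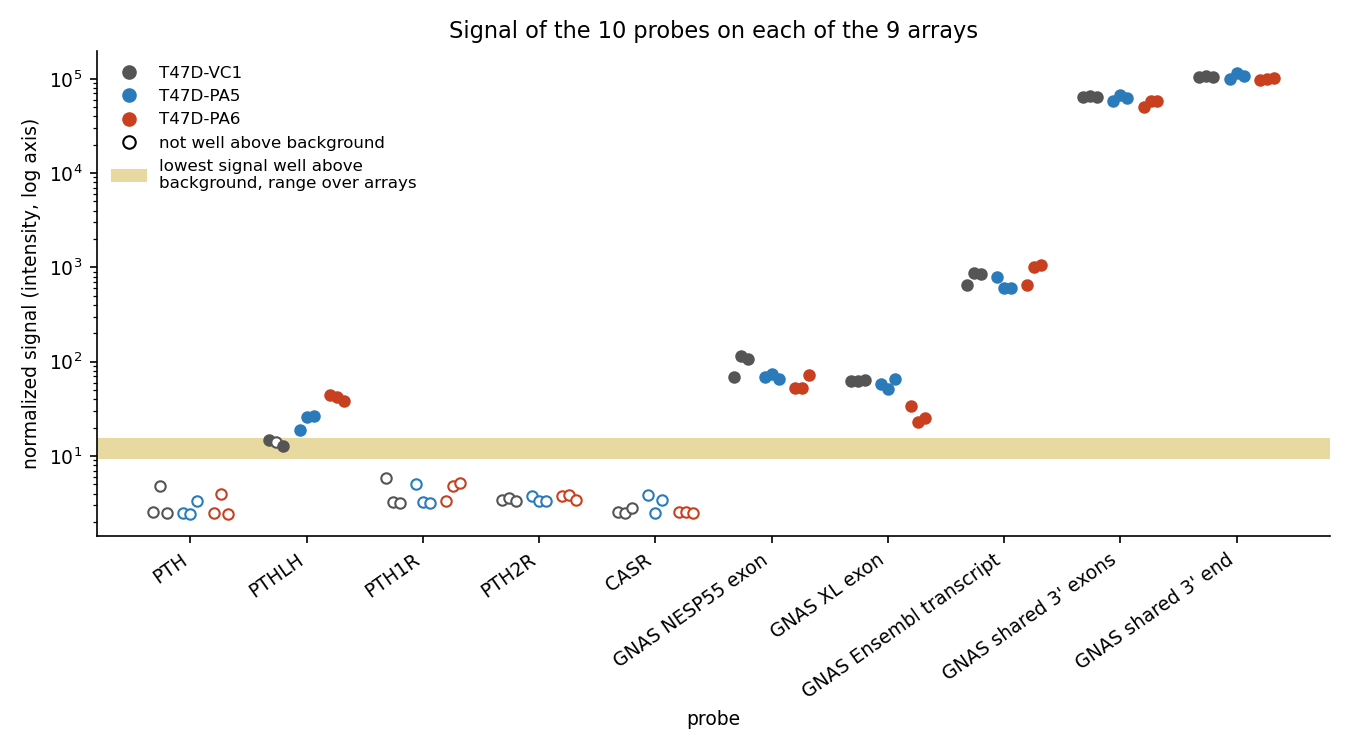
Normalized signal (log axis) of the 10 probes on each of the 9 arrays, with filled points where the probe was well above background, open points where it was not, and a band at 9.59 to 15.2 for the lowest signal well above background over the arrays. PTH, PTH1R, PTH2R and CASR have open points only, PTHLH starts in the band in T47D-VC1, and the 5 GNAS probes lie above it on every array.

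PTHLH was the ligand that could be measured, and it was highest in T47D-PA6. Its signal was 14.9, 14.1 and 12.7 in T47D-VC1, 18.9, 26.1 and 26.6 in T47D-PA5, and 44.0, 41.8 and 38.2 in T47D-PA6. The arrays of the 3 lines did not overlap: every T47D-PA5 array was above every T47D-VC1 array and below every T47D-PA6 array. The probe was well above background on 8 of 9 arrays, with replicate 2 of T47D-VC1 the exception, so the T47D-VC1 level lay close to the detection limit. PTHLH was therefore tested only because T47D-PA5 and T47D-PA6, the lines where it was higher, passed the filter. The geometric mean of the 3 arrays was 13.8 in T47D-VC1, with an SD of 0.12 on the log2 scale. It was 23.6 in T47D-PA5, with an SD of 0.28, and 41.3 in T47D-PA6, with an SD of 0.10 (n = 3 each). For scale, the median SD of all tested probes was 0.18, 0.15 and 0.18 in the same order.

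PTHLH rose 2.98-fold in T47D-PA6 over T47D-VC1, a log2 fold change of 1.58 (SE 0.15, limma adjusted p = 0.000829). This was the 105th smallest p-value of the 26171 probes tested. Within slide 1, which held replicate 1 of each line, the log2 difference was 1.57, and within slide 3 it was 1.66, so it was as large in both. With normexp background correction, which adds an offset of 50 to each signal and so compresses dim probes, the log2 fold change was 0.52 (limma adjusted p = 0.00265). T47D-PA6 was also 1.75-fold above T47D-PA5, a log2 fold change of 0.81 (SE 0.15, limma adjusted p = 0.0135), with 1.22 within slide 1 and 0.59 within slide 3. That call was lost without replicate 2 of T47D-PA6 (adjusted p = 0.0562) and with the unpaired test per probe that the study's methods name, after Benjamini-Hochberg adjustment (adjusted p = 0.0921).

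T47D-PA5, which has the incomplete fragment, was 1.70-fold above T47D-VC1 for PTHLH, a log2 fold change of 0.77 (SE 0.15, limma adjusted p = 0.0457). This call stood close to the threshold and was kept in 6 of 20 alternatives, with adjusted p-values from 0.00391 to 0.205 and the same direction in all 20. The lowest came from replicates 2 and 3 only, a kept alternative that was added after seeing the data. In the other alternatives the lowest was 0.0108 (limma, without replicate 1 of T47D-PA5). The call was lost with a slide block (limma adjusted p = 0.0608) and without any single array other than replicate 1 of T47D-PA5 or of T47D-PA6 (0.0617 to 0.178). The difference was 0.35 within slide 1, 0.89 within slide 2 and 1.07 within slide 3, and with normexp it was 0.20.

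GNAS gave different results at different probes. The XL probe was lower in T47D-PA6, the NESP55 probe was lower there without passing the test, and the probes in the shared downstream exons differed by little and did not pass. No GNAS probe was called between T47D-PA5 and T47D-VC1. All 5 probes were well above background on all 9 arrays.

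The XL exon signal was 62.3, 63.2 and 63.3 in T47D-VC1, 57.8, 51.3 and 64.8 in T47D-PA5, and 34.0, 23.0 and 25.0 in T47D-PA6. T47D-VC1 was tight and overlapped T47D-PA5, and every T47D-PA6 array was below every array of the other lines. The XL exon fell 2.33-fold in T47D-PA6 against T47D-VC1, a log2 fold change of -1.22 (SE 0.16, limma adjusted p = 0.00302). It was 2.14-fold lower than in T47D-PA5 (log2 fold change -1.10, SE 0.16, limma adjusted p = 0.0059). Between T47D-PA5 and T47D-VC1 the log2 fold change was -0.12, with a 95% confidence interval of -0.48 to 0.23 (limma adjusted p = 0.77). The T47D-PA6 array of slide 1 fell least: the difference from T47D-VC1 was -0.87 within slide 1 and -1.40 within slide 3. Under normexp the log2 fold change against T47D-VC1 was -0.48 (limma adjusted p = 0.00465), and under the unpaired test of the study's methods the adjusted p was 0.0607.

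The NESP55 exon signal was 68.4, 115.6 and 106.9 in T47D-VC1, 69.0, 73.5 and 65.2 in T47D-PA5, and 52.7, 52.7 and 71.6 in T47D-PA6. Replicate 1 of T47D-VC1 lay near the T47D-PA5 arrays, and its line overlapped both others. The log2 fold change of T47D-PA6 over T47D-VC1 was -0.70 (SE 0.21, limma adjusted p = 0.0701), with a 95% confidence interval of -1.17 to -0.22 before adjustment. That of T47D-PA5 was -0.45 (limma adjusted p = 0.348). Without replicate 1 of T47D-VC1 the T47D-PA6 difference passed the test, at -0.93 (limma adjusted p = 0.0114). Within slide 1 the T47D-PA6 difference was -0.38 and the T47D-PA5 difference 0.01, and within slide 3 they were -0.80 and -0.71.

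**Figure D2:**
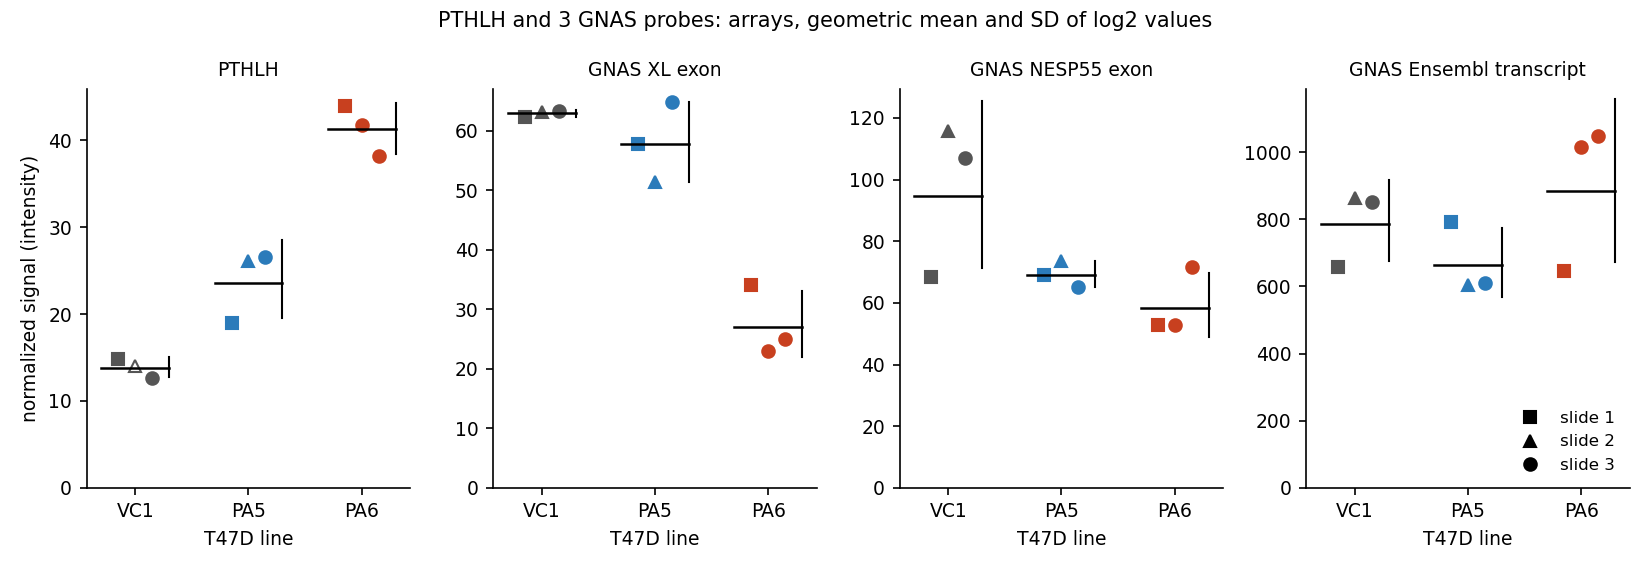
Normalized signal of PTHLH and 3 GNAS probes on each array (linear axes from 0), by line, with the slide as the symbol, an open symbol where the probe was not well above background, a bar at the geometric mean and a vertical line of 1 SD of the log2 values. PTHLH is ordered T47D-VC1, T47D-PA5, T47D-PA6 without overlap, the XL exon is lowest on all 3 T47D-PA6 arrays, and the lines overlap for NESP55 and the Ensembl transcript.

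The probe in the Ensembl transcript gave 659, 864 and 853 in T47D-VC1, 792, 603 and 610 in T47D-PA5, and 646, 1017 and 1049 in T47D-PA6. Replicate 1 stood apart from replicates 2 and 3 in each line, in a different direction in T47D-PA5 than in the others. No comparison passed the test, with log2 fold changes of 0.17, -0.25 and 0.41 for T47D-PA6 over T47D-VC1, T47D-PA5 over T47D-VC1 and T47D-PA6 over T47D-PA5 (limma adjusted p = 0.667, 0.648 and 0.272). Within slide 1 the T47D-PA6 over T47D-PA5 difference was -0.29 and within slide 3 it was 0.76, and without replicate 1 of T47D-PA6 it passed, at 0.64 (limma adjusted p = 0.0449).

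The probe in the shared 3′ exons, which most GNAS transcripts hold, gave 63480, 64887 and 64277 in T47D-VC1, 57804, 67213 and 62301 in T47D-PA5, and 50450, 57420 and 57519 in T47D-PA6. All T47D-PA6 arrays were below all arrays of both other lines, by a small margin. The log2 fold change of T47D-PA6 was -0.22 over T47D-VC1 (SE 0.10, limma adjusted p = 0.201), with a 95% confidence interval of -0.45 to 0.01, and -0.18 relative to T47D-PA5 (limma adjusted p = 0.318). At the shared 3′ end T47D-VC1 had a geometric mean of 105535, T47D-PA5 of 107246 and T47D-PA6 of 98997. The log2 fold change of T47D-PA6 over T47D-VC1 was -0.09 there (95% confidence interval -0.31 to 0.12, limma adjusted p = 0.587).

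**Figure D3:**
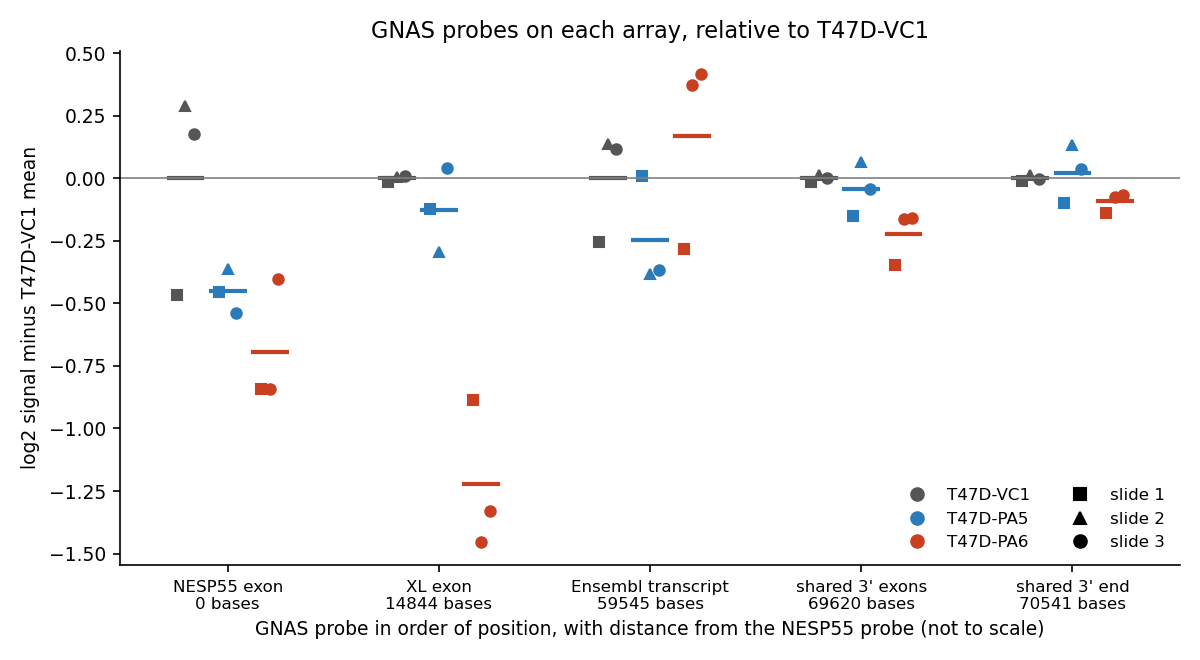
Log2 signal of the 5 GNAS probes on each array minus the T47D-VC1 mean of the same probe, in order of position, with bars at the line means and the distance of each probe from the NESP55 probe in bases. T47D-PA6 lies at -1.22 on average for the XL exon and at -0.22 and -0.09 for the shared 3′ exons and 3′ end.

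Set against the shared 3′ exons of the same array, the XL exon was also lower in T47D-PA6. With the T47D-VC1 mean of the log2 ratio set to 0, the ratio was 0.00, -0.01 and 0.01 in T47D-VC1, 0.03, -0.36 and 0.09 in T47D-PA5, and -0.54, -1.29 and -1.17 in T47D-PA6. The mean was -1.0 in T47D-PA6 (SD 0.40, n = 3) and -0.08 in T47D-PA5 (SD 0.24, n = 3). All T47D-PA6 arrays were below all others, and the exact two-sided permutation test gave p = 0.1 against either line, the smallest that 3 arrays against 3 allow. For NESP55 the same ratio was -0.47 in T47D-PA6 (exact permutation p = 0.2, n = 3) and -0.41 in T47D-PA5 (exact permutation p = 0.3, n = 3). For the Ensembl transcript it was 0.39 in T47D-PA6 (exact permutation p = 0.3, n = 3) and -0.20 in T47D-PA5 (exact permutation p = 0.4, n = 3). These ratios restate the probe values above and are no separate evidence.

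Of the 6 tested probes, 2 were called between T47D-PA6 and T47D-VC1, where 10.6% of all tested probes were. Between T47D-PA5 and T47D-VC1 it was 1 of 6, against 1.62% of all, and between T47D-PA6 and T47D-PA5 it was 2 of 6, against 9.91%. The called probes were PTHLH in all 3 comparisons and the GNAS XL exon in both that involve T47D-PA6. Arrays of the compared lines did not overlap for 4, 1 and 3 of the 6 probes, and for 31.3%, 23.3% and 32.9% of all tested probes. The comparisons share arrays and are not independent of each other. Of the 6 probes, 5 read the GNAS locus, so they are not separate members. PTHLH was tested only through T47D-PA5 and T47D-PA6, where it was higher. Set against the shares of all probes, these counts are therefore no test of the members as a group.

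**Figure D4:**
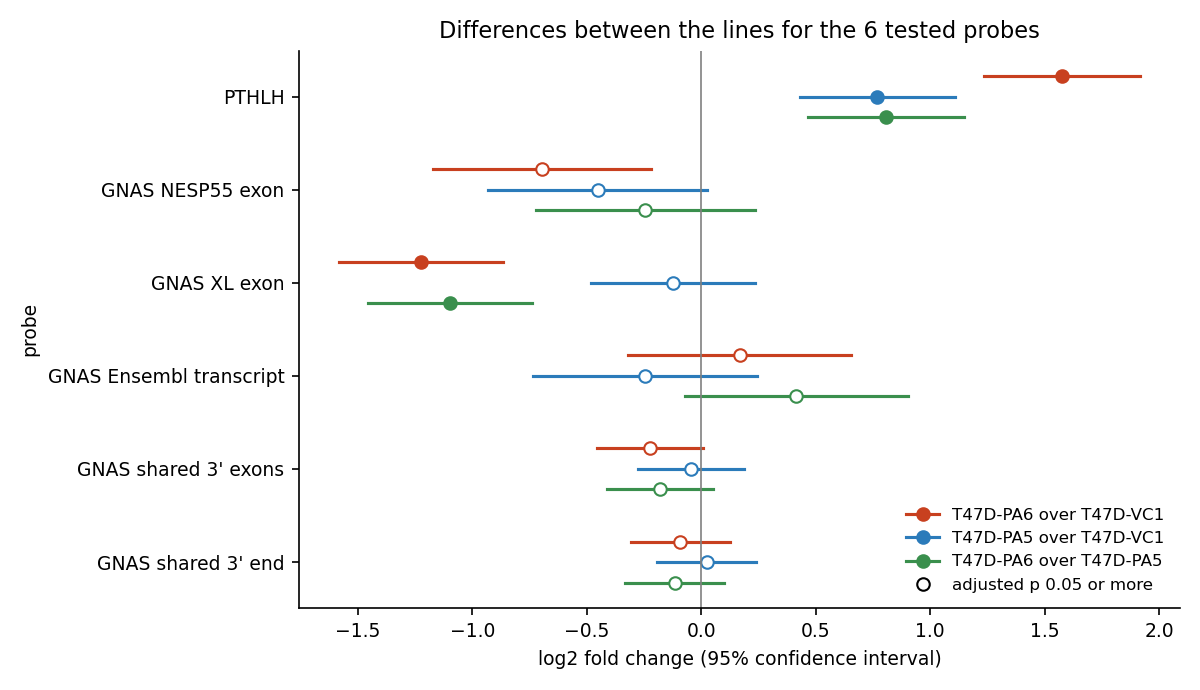
Log2 fold change with its 95% confidence interval for the 6 tested probes in the 3 comparisons, with filled points where the adjusted p was under 0.05. PTHLH is to the right of 0 in all 3, the XL exon is to the left in both comparisons with T47D-PA6, and the other GNAS probes have open points only.

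The rest of the pathway was read from 12 lists of 141 genes, of which 100 were tested, each through its brightest tested probe. Between T47D-PA6 and T47D-VC1, 8 rose and 6 fell, 14% in all, where 10.1% of the 20098 genes tested were called. Between T47D-PA5 and T47D-VC1, 1 rose and 2 fell (3%, against 1.65% of all genes), and between T47D-PA6 and T47D-PA5, 7 were higher and 7 lower (14%, against 9.64%). The median log2 fold change of all genes was -0.03, -0.03 and 0.00 in these comparisons.

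Among 13 other class B receptors, the family of PTH1R, 4 were tested, and their median difference between T47D-PA6 and T47D-VC1 was -0.33 on the log2 scale. CALCR, the calcitonin receptor, fell in both lines that carry a PTH-AS fragment. Its signal was 148, 67.1 and 60.9 in T47D-VC1, 15.1, 16.1 and 19.2 in T47D-PA5, and 30.7, 21.7 and 26.2 in T47D-PA6. Every T47D-VC1 array was above every other array, although replicate 1 of T47D-VC1 was more than double the others of its line. The log2 fold change of CALCR was -1.71 in T47D-PA6 (SE 0.31, limma adjusted p = 0.0132) and -2.34 in T47D-PA5 (SE 0.31, limma adjusted p = 0.0108), where the probe was well above background on 2 of 3 arrays.

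Receptor partners held 12 tested genes, of which 3 rose in T47D-PA6 over T47D-VC1 and none fell, with a median log2 fold change of 0.10. RAMP1, a membrane protein that pairs with calcitonin-family receptors, was 256, 150 and 126 in T47D-VC1, 593, 317 and 347 in T47D-PA5, and 885, 1052 and 1174 in T47D-PA6. The lines did not overlap, and RAMP1 rose by 2.61 on the log2 scale in T47D-PA6 (SE 0.31, limma adjusted p = 0.00223), while the T47D-PA5 value of 1.25 did not pass (limma adjusted p = 0.0938). The receptor kinases GRK3 and GRK5, which phosphorylate active receptors, rose by 1.52 and 1.09 in T47D-PA6 (limma adjusted p = 0.00442 and 0.0375). GRK5 was 77.0, 41.5 and 39.4 in T47D-VC1 and 87.0, 111.3 and 126.5 in T47D-PA6, so the lines differed least in replicate 1. The other tested probe of GRK5 did not show the rise, with a log2 fold change of -0.08 (limma adjusted p = 0.924), whereas that of RAMP1 gave 2.63 (limma adjusted p = 0.00246).

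Of 10 other G alpha genes tested, 1 rose and 1 fell in T47D-PA6 over T47D-VC1, with a median of 0.03. The brightest probe of GNA13 did not pass there, at -0.30 (limma adjusted p = 0.0905), but its dimmer tested probe was called lower. GNAI1, an inhibitory subunit, was 18.7, 25.3 and 28.8 in T47D-VC1, 24.4, 26.4 and 24.2 in T47D-PA5, and 67.4, 107.4 and 90.7 in T47D-PA6. It was higher on every T47D-PA6 array than on any other array and rose by 1.86 on the log2 scale over T47D-VC1 (SE 0.20, limma adjusted p = 0.00163). GNAQ, which couples receptors to phospholipase C, fell by 0.79 (SE 0.14, limma adjusted p = 0.0115). The list of beta and gamma genes, which also holds the beta-like gene GNB2L1 (RACK1), had 14 tested genes. Among them, GNGT1 rose by 0.53 in T47D-PA6 (limma adjusted p = 0.0155), and GNG11 fell by 0.76 in T47D-PA6 and by 1.07 in T47D-PA5 (limma adjusted p = 0.0355 and 0.0291).

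ADCY1, a calmodulin-regulated adenylate cyclase, had the largest rise in T47D-PA6 over T47D-VC1 of any gene in the lists and was the single one of 5 tested cyclases to be called. Its signal was 33.1, 31.1 and 37.3 in T47D-VC1, 35.4, 32.1 and 21.1 in T47D-PA5, and 215, 445 and 415 in T47D-PA6. The T47D-PA6 arrays stood far above the others, which overlapped each other. Against T47D-VC1, ADCY1 rose by 3.34 on the log2 scale (SE 0.29, limma adjusted p = 0.000621). Against T47D-PA5 the value was 3.56 (limma adjusted p = 0.000881).

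Of 9 protein kinase A genes tested, PRKAR2A, a regulatory subunit, fell by 0.64 in T47D-PA6 over T47D-VC1 (limma adjusted p = 0.0305). The PRKAR2A value in T47D-PA5 over T47D-VC1 was -0.55 (limma adjusted p = 0.121). Between T47D-PA6 and T47D-PA5 it was -0.09 (limma adjusted p = 0.767). The catalytic subunit PRKACB and the regulatory subunit PRKAR1A were lower in T47D-PA6 than in T47D-PA5, with log2 fold changes of -0.74 and -0.41 (limma adjusted p = 0.0484 and 0.0464), and the other PRKACB probe gave 0.21 (limma adjusted p = 0.668). None of 7 tested cAMP phosphodiesterases was called in any comparison, and their median in T47D-PA6 over T47D-VC1 was 0.17.

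Among the 9 genes of the CREB family, CREB5 rose by 2.29 in T47D-PA6 over T47D-VC1 (SE 0.26, limma adjusted p = 0.00189). Its mean signal went from 12.9, well above background on 2 of 3 arrays, to 63.2. It was tested only because T47D-PA5 and T47D-PA6, where it was higher, passed the filter. Its T47D-VC1 signals were 15.1, 11.2 and 12.7, close to the detection limit. On those arrays, signals of other probes up to 17.1, 18.9 and 14.7 were not well above background. In T47D-PA5 the log2 fold change of CREB5 was 1.06 and did not pass (limma adjusted p = 0.0934). CRTC2, a coactivator of CREB, was lower in T47D-PA6 than in T47D-PA5 (log2 fold change -0.57, limma adjusted p = 0.0327). Of 11 tested early cAMP-responsive genes, SIK1, a kinase that restrains CREB coactivators, rose by 0.42 in T47D-PA6 (limma adjusted p = 0.0468). NR4A3, an orphan nuclear receptor, was well above background on 3 T47D-VC1, 2 T47D-PA5 and 0 T47D-PA6 arrays, so it was tested only because T47D-VC1 passed the filter. On replicates 1, 2 and 3 of T47D-PA6, signals up to 20.3, 13.9 and 15.3 were not well above background. No fold is therefore given for NR4A3, and its limma adjusted p of 0.0279 comes from a fit to T47D-PA6 signals at background. RGS2, a negative regulator of G protein signalling, rose by 1.25 in T47D-PA5 (limma adjusted p = 0.00551), and its T47D-PA6 value was 0.25 (limma adjusted p = 0.322). The list median in T47D-PA6 over T47D-VC1 was 0.07.

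**Figure D5:**
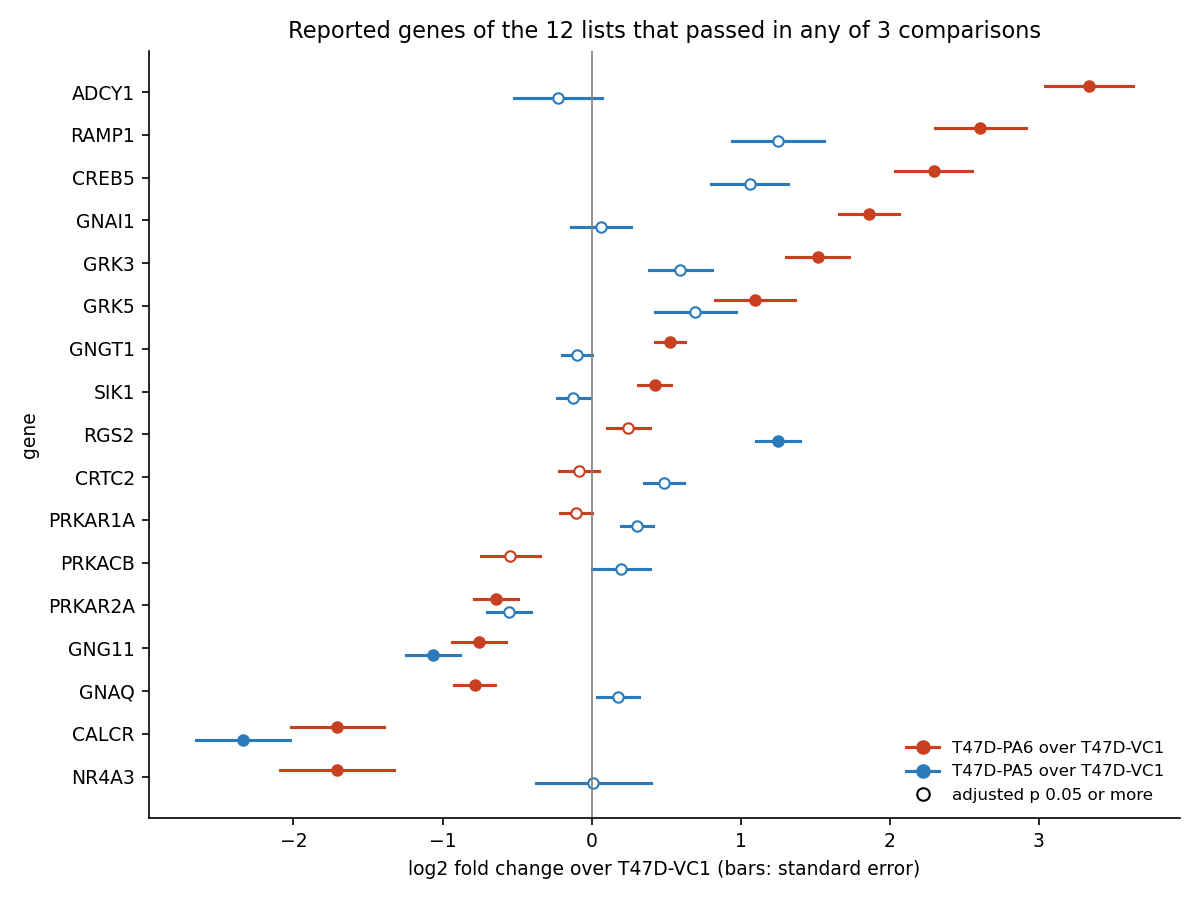
Log2 fold change over T47D-VC1, with its standard error, of the reported genes of the 12 lists that were called in any of the 3 comparisons, with filled points where the adjusted p was under 0.05 in the comparison shown. ADCY1 at 3.34, RAMP1 at 2.61 and CREB5 at 2.29 lie farthest to the right in T47D-PA6, CALCR lies left of 0 in both lines, and the NR4A3 value in T47D-PA6 is that of a fit to signals at background. The CREB5 values are relative to T47D-VC1 signals close to the detection limit.

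Of 13 genes that regulate mineral hormones, 8 were tested and 5 were well above background on no array, among them GCM2, the factor that specifies the parathyroid gland. The median of the tested genes in T47D-PA6 over T47D-VC1 was 0.21. Of 4 parathyroid markers, GCM2 and CHGA were well above background on no array, and TBX1 and EYA1, which other tissues also express, were on all 9 and were not called in any comparison. Of 9 genes through which PTH acts on bone, 7 were well above background on no array, with TNFSF11 and SOST among them, and neither of the 2 tested was called. Read through the brightest probe, none of the 9 tested neighbours of GNAS on chromosome 20 was called in any comparison, and their median in T47D-PA6 over T47D-VC1 was -0.10. Dimmer probes of 2 of them disagreed with this in that comparison: the other probe of VAPB had a log2 fold change of -0.83 (limma adjusted p = 0.00548) and that of ATP5F1E one of -1.26 (limma adjusted p = 0.00793). The ATP5F1E probe was also lower in T47D-PA5, at -1.05 (limma adjusted p = 0.0457). GNAS-AS1, the antisense transcript of the locus, named after its values were seen, had, for T47D-PA6 against T47D-VC1, a log2 fold change of -0.37 (limma adjusted p = 0.118), and its other probe 0.01 (limma adjusted p = 0.987).

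As a description over the 9 arrays, without a test, the tested probes most like the GNAS XL exon were those of TPT1 (Pearson r = 0.99), NCBP1 (0.98) and MRPL50 (0.98). For NESP55 they were CRCP, MRPL28 and GCAT, each at 0.97. The Ensembl transcript was most like UHRF2, TPD52L2 and PDCD2L (0.97 to 0.98), the shared 3′ exons like CENPC, INTS2 and PPP3CB (0.98 to 0.99), and the shared 3′ end like CCNG2, with 2 of its probes, and DNAJB6 (0.94 to 0.96). For PTHLH, which was outside the rule for this because 1 array was not well above background, HELZ2, EIF2AK2 and IRF7 came first, each at 0.99. The 9 arrays form 3 lines of 3, so they are not independent points.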

How the data were processed

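Per spot, the authors deposited a background-subtracted intensity from Feature Extraction that was not yet normalized between arrays. They also deposited quantile-normalized intensities. The file headers name Feature Extraction 10.7.1.1, and the submitters' processing notes name 9.5.1.1. Control and outlier spots were left out. The log2 values of spots with the same probe were averaged and then quantile-normalized. Probes well above background on all 3 arrays of at least 1 line were tested, 26171 of 58201. The fit used limma 3.58.1 in R 4.3.3 (lmFit and eBayes, 1 fit over 9 arrays, 6 residual degrees of freedom, Benjamini-Hochberg adjustment, threshold 0.05). The fit was tested on simulated data. Precision is limited by the number of arrays.

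Every member probe is named. In each list, genes called in any comparison are named, at most the 4 with the largest change, and 1 such gene is not reported here. The members and lists were chosen with earlier results of these data known. Slide 1 held replicate 1 of every line, slide 2 replicate 2 of T47D-PA5 and T47D-VC1, and slide 3 the rest, and slide 1 was scanned in a run of its own. Alternatives were the 75th percentile shift, normexp (offset 50), other filters, the authors' own normalized intensities, 1 probe per gene, slide and replicate blocks, an intensity trend, the compared lines alone, the methods' t-test and each array left out. Replicates 2 and 3 alone were added after seeing the data. Probe sequences are those of the array files.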

Additional observations from a re-analysis of the deposited data

Results flagged for a closer look

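The change of PTHLH over T47D-VC1 was larger in T47D-PA6 than in T47D-PA5. The difference between these changes, tested as T47D-PA6 over T47D-PA5, was 0.81 on the log2 scale (limma adjusted p = 0.0135), with T47D-PA6 higher on 3 of 3 arrays. The change of the GNAS XL exon over T47D-VC1 was lower in T47D-PA6 than in T47D-PA5 by the same test, with a difference of -1.10 (limma adjusted p = 0.0059) and T47D-PA6 lower on 3 of 3 arrays. Both differences had the same sign within slide 1 and within slide 3.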

How the results depend on the processing

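Counts here are of the 20 alternatives that tested a probe, replicates 2 and 3 only among them. PTHLH in T47D-PA6 over T47D-VC1 was called in 20 of 20 and the GNAS XL exon in 19. The filter for all 9 arrays left PTHLH untested and is not among its 20. In T47D-PA6 over T47D-PA5, PTHLH was called in 18 of 20 and the XL exon in 19. With replicates 2 and 3 only, a choice made after seeing the data, the comparisons in the order T47D-PA6 over T47D-VC1, T47D-PA5 over T47D-VC1 and T47D-PA6 over T47D-PA5 had 9388, 5208 and 9033 probes called, and 4, 3 and 3 member probes. The methods' t-test gave 644, 38 and 965 probes after adjustment, and 1, 0 and 0 member probes. The paper names this test for its datasets in general and called array changes by fold cutoffs, which were not applied here. Without a filter on dim probes the counts were 1787, 246 and 1690. In T47D-PA5 over T47D-VC1 the intensity trend gave 637, the slide block 722, and the fit to the compared lines alone 1613 in T47D-PA6 over T47D-VC1. Member probes called in T47D-PA5 over T47D-VC1 were 0 with the intensity trend, no filter, normexp, the compared lines alone, either block, or probes well above background on all 9 arrays. That filter, and 1 probe per gene, gave 1 in each comparison with T47D-PA6, since PTHLH or the XL probe was then not tested. With each array left out, 1040 to 3648, 127 to 812 and 1015 to 3892 probes and 2 to 3, 0 to 1 and 1 to 3 member probes were called. Where values were not called, the log2 fold change in T47D-PA5 over T47D-VC1 changed sign at the shared 3′ end with normexp (-0.0014) and with an array left out (-0.0314 to 0.0844), and at the shared 3′ exons with replicates 2 and 3 only (0.0029) and with an array left out (-0.0976 to 0.0112). The causes were not tested.

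No label says what a replicate number marks, though number 1 coincides with slide 1. Deviations of same-numbered arrays correlated at 0.08 to 0.33 over 9 pairs, not all above 0.1, other arrays at -0.30 to 0.25, and 5 of 9 arrays correlated best with their own number. Replicates 1 correlated with each other at 0.19 to 0.33 and with arrays of other numbers at -0.30 to -0.11. With the replicate block, 3404, 595 and 3160 probes and 2, 0 and 2 member probes were called, and PTHLH in T47D-PA5 over T47D-VC1 had an adjusted p of 0.0692. Signal near background limits PTHLH in T47D-VC1 and in replicate 1 of T47D-PA5, and leaves PTH, PTH1R, PTH2R and CASR unmeasured. PTHLH was 18.9 in that replicate, where signals of other probes up to 21.3 were not well above background.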
